A study of Mus musculus with 12 samples.

Results

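The resting relation between ribosome footprints and mRNA was described in R1 mouse embryonic stem cells that had received no Krr1 siRNA. The control libraries were chosen by their labels: 6 of the 12 libraries of the series, an RNA-seq and a ribosome profiling library from each of 3 control lysates. R1 cells, grown on gelatin with serum and LIF, had received either control siRNAs or siRNAs to Krr1, a factor needed to build the small ribosomal subunit, 48 h earlier. The controls are named siGFP, siNC and Lipo; the labels speak of 3 different control siRNAs, although the name Lipo gives none. Each lysate was split between rRNA-depleted RNA-seq and ribosome profiling. The labels do not say whether the lysates came from separate cultures, so the p-values measure only the spread between these samples.

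Ribosome profiling digests RNA that is not shielded by a ribosome and sequences what remains, the footprint. Dividing a gene's share of footprints by its share of RNA gives a footprint-to-RNA ratio, often called translational efficiency, because mRNAs that load ribosomes densely yield more footprints per molecule. Cells are known to hold some mRNAs back from ribosomes: mRNAs that start with a pyrimidine tract respond to mTOR, upstream open reading frames restrain stress factors, iron regulatory proteins block ferritin mRNA and polyamines control their own synthesis. Nuclear noncoding RNAs are not translated and should carry few ribosome-protected fragments.

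The control RNA libraries held 35795829 to 39670139 counts on genes and the control footprint libraries 22317119 to 28026444. The 18S, 5.8S and 28S precursor entry Rn45s took 0.704% to 1.12% of RNA counts and 5.84% to 6.45% of footprint counts. The label of the cells was checked against markers: all 10 stem cell genes were above 1 CPM (counts scaled to the library's total on genes) in RNA and summed to 7627 to 7756 CPM. The 10 fibroblast or feeder markers summed to 7.56 to 8.45 CPM, with Col3a1, Twist2, Postn, Lum and Dcn each under 0.1 CPM. Endoderm markers summed to 1.44 to 1.94 CPM and mesoderm markers to 3.24 to 3.85 CPM. The 4 neural markers summed to 124 to 135 CPM, of which Tubb3, a neuronal tubulin, made up 122 CPM on average.

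Ratios below are log2 footprint over RNA in each lysate, set so that 0 is the median of the genes tested in that lysate, and are given as mean ± SD over the 3 lysates. They rank genes within these cells and say nothing of ribosomes per cell. A gene is called high or low where the edgeR quasi-likelihood test gave a Benjamini-Hochberg adjusted p under 0.05 and the fitted ratio was at least 2-fold from equality on the fit's own scale, whose median lies at -0.02, so a gene close to the 2-fold line can be called on one scale and sit just inside 1 on the other. RNA fragments were counted over all exons, untranslated regions included, while footprints lie mostly in coding sequence, so a gene's ratio also depends on how much of its mRNA is coding. Coding length was not analysed here.

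Of 23420 genes in the tables, 13911 passed the filter on low counts and were tested. Among them 1908 (13.7%) were high and 2215 (15.9%) were low, and 10716 (77%) differed from equality at the adjusted p alone. The ratio repeated closely between lysates. Its SD over the 3 lysates had a median of 0.13 over all genes and 0.07 over the 4253 protein-coding genes with at least 50 CPM, while the SD between protein-coding genes was 1.05. The Pearson correlation between lysates, across protein-coding genes, was 0.921 to 0.934, and 0.99 to 0.993 in those with at least 50 CPM. In the 1367 protein-coding genes under 1 CPM the median SD between lysates was 0.55. The middle of the protein-coding genes was wide: their lower and upper 5% lay beyond -1.65 and 1.65.

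The 13155 protein-coding genes centred on 0.02, with 1787 high and 1878 low. Long noncoding RNAs lay lower, with a median of -1.09 over 376 genes, of which 200 (53.2%) were low and 16 high. Small nucleolar RNAs, which guide modification of ribosomal RNA in the nucleolus, had a median of -2.25 over 101 genes, with 60 low and 19 high. Among microRNA genes 79 of 646 passed the filter, with a median of 1.29, 42 (53.2%) high and 16 low. The filter itself bears on these counts, since a gene can pass through the kind of library in which it is high. Of the 79 microRNA genes 33 reached the filter's 0.313 CPM in all 3 footprint libraries but not in all 3 RNA libraries, and 30 of those 33 are among the 42 high. For long noncoding RNAs, 376 of 1708 passed, 117 of them reaching that level in all RNA but not all footprint libraries, and 95 of these 117 are among the 200 low. For small nucleolar RNAs 20 of the 101 passed in that way, 19 of them low. Medians and counts of these classes therefore describe the genes that passed and not the class. All 4 RNase P RNA entries were low.

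**Figure D1:**
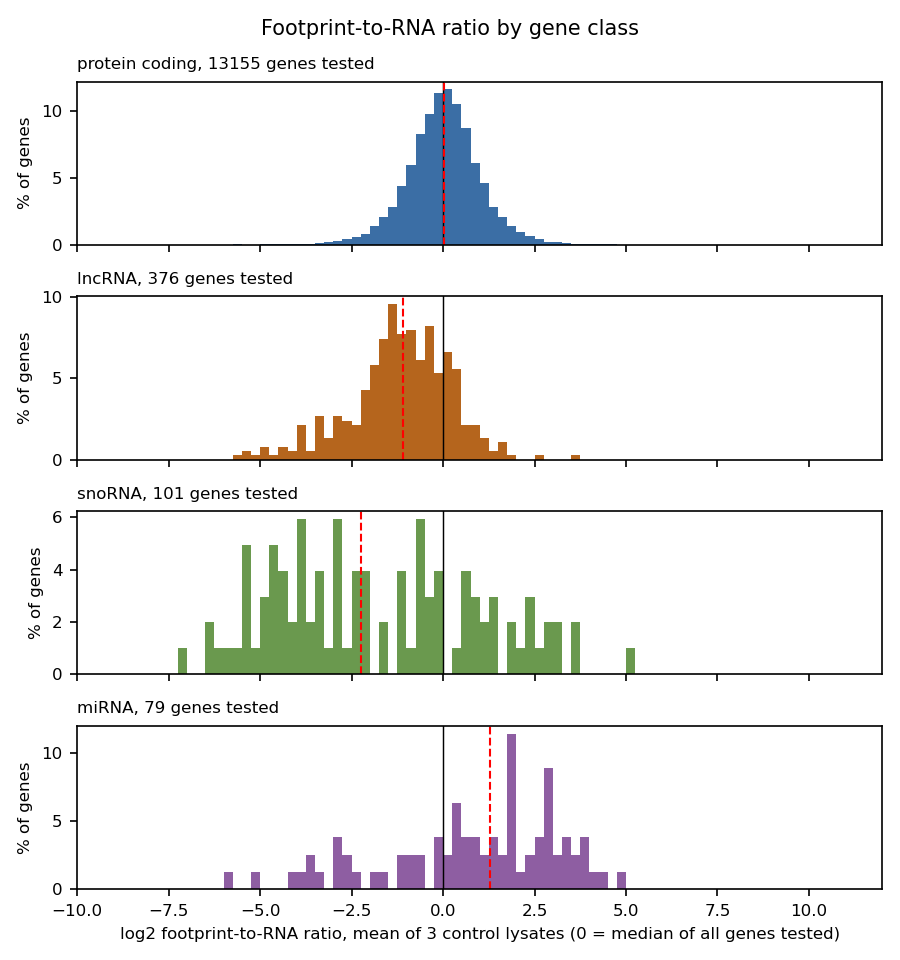
Distribution of the log2 footprint-to-RNA ratio (x axis, mean of the 3 control lysates) as a percentage of the genes of each class (y axis), for protein-coding genes, long noncoding RNAs, small nucleolar RNAs and microRNAs. The black line marks 0 and the dashed red line the class median, which lies at 0.02, -1.09, -2.25 and 1.29 from top to bottom.

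Across 52 gene lists the medians ran from -3.03 for nuclear and imprinted long noncoding RNAs to 0.74 for genes of the formative and primed epiblast, and 31 medians lay above 0. The lowest protein-coding lists were polyamine synthesis and antizymes (-1.30), large-subunit ribosomal proteins (-1.05) and small-subunit ribosomal proteins (-0.96). The highest after the epiblast list were cytosolic aminoacyl-tRNA synthetases (0.59), nuclear pore proteins (0.52), chaperonin and cytosolic chaperones (0.51), TCA cycle enzymes (0.51), the Polycomb, BAF and NuRD complexes (0.50), the small-subunit processome (0.50) and laminins, collagens and matrix proteins (0.50). Genes outside every list numbered 11741 and had a median of -0.02, with 13.5% high and 15.9% low. Counts of called members below stand beside 13.7% high and 15.9% low over all genes tested, and many lists lie near these shares.

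**Figure D2:**
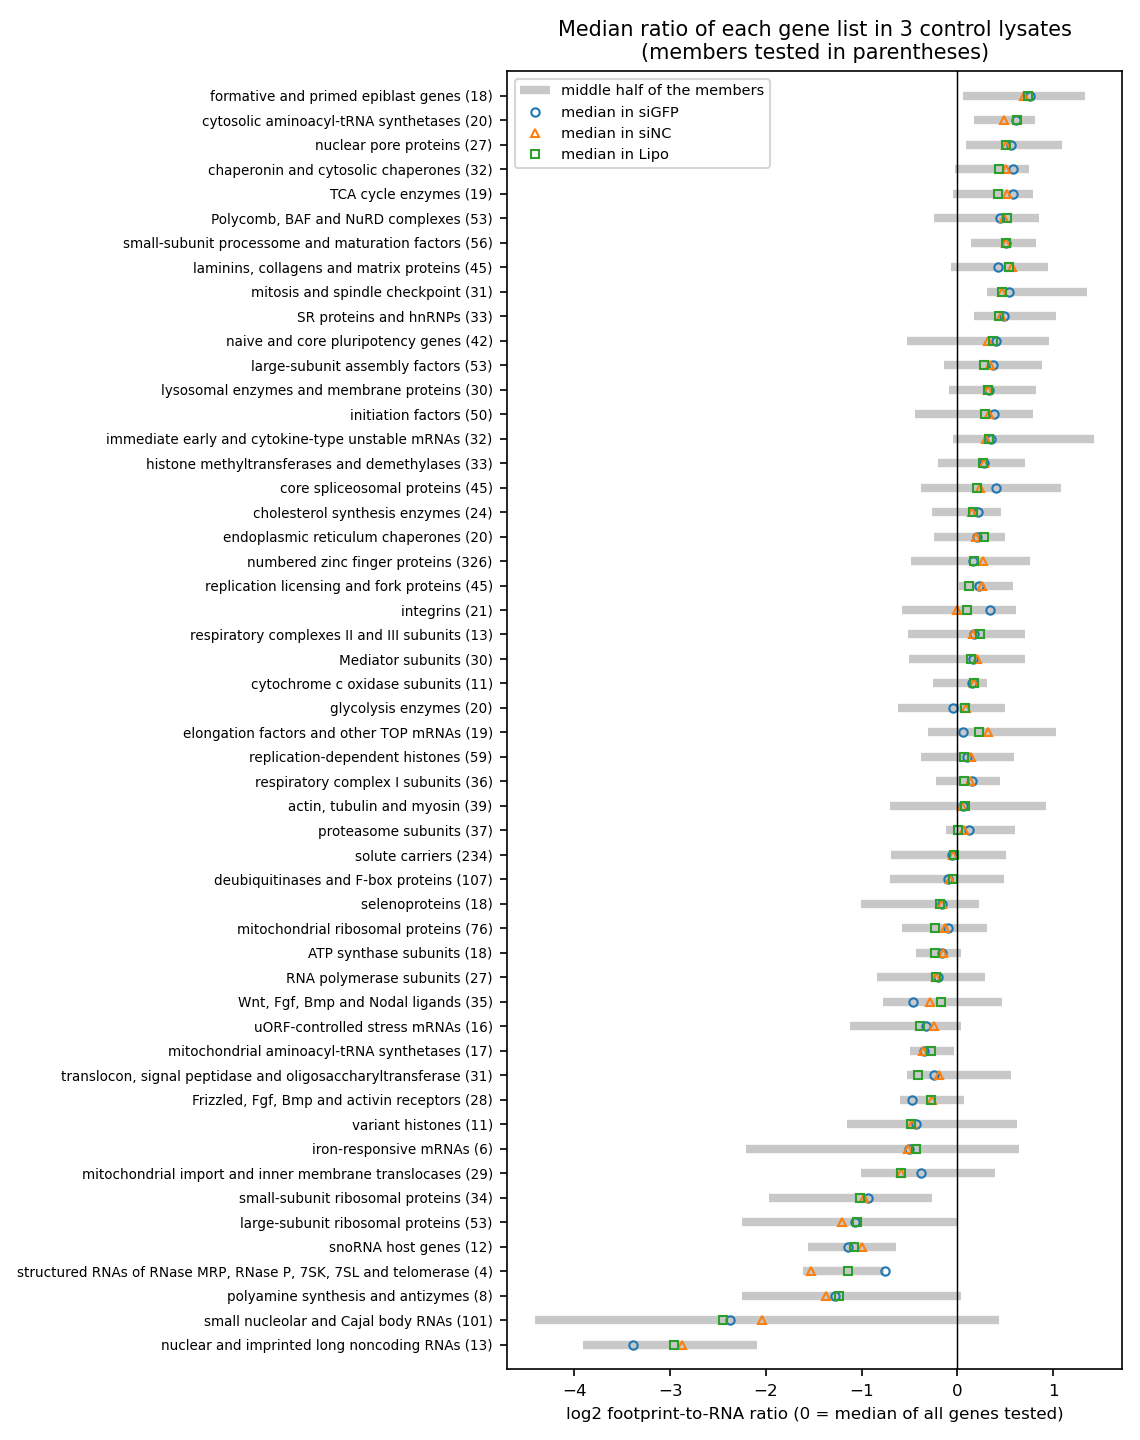
Median log2 footprint-to-RNA ratio (x axis) of each of the 52 gene lists (y axis, ordered by median, members tested in parentheses) in each of the 3 control lysates, with a grey bar from the lower to the upper quartile of the members. The symbols of the 3 lysates lie close together beside the distance between lists, which spans -3.03 to 0.74.

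Ribosomal protein mRNAs, the classic family with a pyrimidine tract at the start, had few footprints for their RNA counts. Of 34 small-subunit genes 17 were low and 1 high, and of 53 large-subunit genes 28 were low and 3 high, against 15.9% low and 13.7% high over all genes. The list medians in siGFP, siNC and Lipo were -0.93, -0.98 and -1.02 for the small subunit and -1.07, -1.20 and -1.05 for the large subunit. Rpl15 (large subunit; chromosome 14, 18267823 to 18270986, GRCm38.p6) stood at -6.41, -7.22 and -6.82 in siGFP, siNC and Lipo, a mean of -6.81 ± 0.41 (edgeR adjusted p = 2.45e-22). Its counts were 3804, 4587 and 4270 in RNA and 21, 17 and 21 in footprints. Rpsa, a small-subunit protein also known as the laminin receptor, was at -5.41 ± 0.32, Rpl27a at -4.36 ± 0.23 and Rps7 at -4.18 ± 0.18. Rps24 was high at 2.41 ± 0.26, and so was Rpl37 (1.90 ± 0.12).

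Ribosomal protein genes have many processed pseudogenes, near-identical copies to which a read can align equally well, and the deposited counts hold unique alignments only, per the tables' closing rows. A pseudogene carrying the gene's own name is listed by RefSeq for 66 of the 87 ribosomal protein genes. Pseudogenes under other names were not searched for, so the other 21 are not known to lack copies. Among these 21 the median was -0.35, with 6 low and 1 high. The 12 large-subunit genes of that kind had a median of 0.19 (2 low, 1 high) and the 9 small-subunit genes -0.91 (4 low). Over all protein-coding genes, the 318 with a pseudogene named after them had a median of -0.49 and 37.4% were low, beside 0.03 and 13.7% among the other 12837. Footprints are shorter than the RNA fragments, about 30 nt against 40 to 60 nt per the labels, and the part that multiple alignment has in these ratios was not tested. Genes of near-identical families, ribosomal proteins and histones among them, are therefore uncertain here. Rps24 and Rpl37, the high members named above, also have such a pseudogene, as have 32 of the 206 genes chosen to be named. Among these are Zfp42, Eef1a1, Eef2, Actb, H3f3a, Cox7c, Atp5l, Selk, Srsf3, Psma5, Ndufa12, Hspe1 and Mrpl23.

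The pyrimidine start itself was read from RefSeq promoters (GRCm38.p6) for the genes with a single annotated start. The motif searched was a C at the annotated first base followed by 4 bases that are each C or T, on the gene's own strand. It was present in 2.47% of 22862 promoters, in 12 of the 55 ribosomal protein genes with a single start and in 3 of 12 genes of elongation factors and other tract-bearing mRNAs. The starts below are the 2 highest and 2 lowest ratios among the 15 genes of these lists that hold the motif, chosen after their values were seen, and show the tract in both kinds of gene. Capitals mark the run of C and T from the annotated start, and the lower-case bases before it lie upstream of the gene.
Eif3f: tctaggctctCTCTCTTTCTCggca
Rpl28: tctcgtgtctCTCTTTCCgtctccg
Rpl35: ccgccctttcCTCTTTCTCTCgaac
Rpl15: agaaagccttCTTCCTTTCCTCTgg
These windows lie at chr7:108934405-108934429 (plus strand) for Eif3f, chr7:4792955-4792979 (plus) for Rpl28, chr2:39005117-39005141 (minus) for Rpl35 and chr14:18270972-18270996 (minus) for Rpl15. Eif3f, a subunit of initiation factor eIF3 with a run of 11 bases, was high at 1.99 ± 0.06. Rpl28, with a run of 8, was at 0.80 ± 0.26 and not called. Rpl35, with a run of 11, was at -4.32 ± 0.65, and Rpl15 has a run of 13. Over all protein-coding genes with a single start, the 208 with the motif had a median of 0.02 and the 8181 without it 0.03. Annotated starts can miss the base where transcription begins, so an absent match says only that these letters are not at the annotated start.

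Translation factors showed no common level. Of 19 elongation factors and other mRNAs of the pyrimidine-tract family 5 were high and 1 low (median 0.10). Pabpc1, the cytoplasmic poly(A)-binding protein, stood at 2.29, 2.31 and 2.22 in siGFP, siNC and Lipo (2.27 ± 0.05, edgeR adjusted p = 1.11e-20). Eef2, which moves the ribosome along by a codon, was at 0.05 ± 0.08, indistinguishable from equality (edgeR adjusted p = 0.598). Eef1a1, which delivers aminoacyl-tRNA, was at -0.77 ± 0.07, not 2-fold from equality. Naca, the alpha subunit of the nascent polypeptide complex, was the low member at -1.63 ± 0.24. The 16 members with no named pseudogene had a median of 0.21, with 4 high and 1 low.

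Of 50 initiation factor genes 10 were high and 4 low (median 0.32). Eif5b, the GTPase that joins the subunits, was at 3.64, 3.90 and 3.62 in the 3 lysates (3.72 ± 0.16). Eif4a1 (chromosome 11, 69666936 to 69672423), the helicase that unwinds mRNA leaders, was at -5.56, -5.51 and -5.56 (-5.55 ± 0.03, edgeR adjusted p = 1.26e-23), with 7263, 8571 and 8572 RNA counts against 75, 112 and 106 footprints. The cap-binding protein Eif4e was low as well, at -2.35 ± 0.17. Cytosolic aminoacyl-tRNA synthetases, which charge tRNAs, sat together above the median: 1 of 20 was high, none low, and the members ran from -0.28 to 1.05. The high one was Rars, the arginine enzyme (1.05 ± 0.06), which lost its call with gene totals alone, as did Acvr1, Fgfr4, H2afx, Lig1, Ndufb11, Nsdhl and Tomm6, named below. Their 17 mitochondrial counterparts had a median of -0.36, with Lars2 low at -1.73 ± 0.18. Mitochondrial ribosomal proteins had a median of -0.17 over 76 genes, with 3 high and 5 low. Mrpl52 (1.51 ± 0.14) was the highest called and Mrpl23 (-2.77 ± 1.53), a gene near 1 CPM, the lowest. Mrpl23, with 0, 7 and 4 footprints in siGFP, siNC and Lipo, has a named pseudogene and passed the filter through RNA alone.

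Ribosome assembly factors lay above the median. In the processome of the small subunit, to which Krr1 belongs, 11 of 56 were high and 3 low, with a list median of 0.51 in each of the 3 lysates. Esf1 (3.24 ± 0.30) and Nop14 (1.93 ± 0.07) were the highest of the called members and Rrp7a (-2.30 ± 0.07) and the methyltransferase Emg1 (-1.19 ± 0.06) the lowest. Krr1 itself stood at 0.31, 0.30 and 0.31 (0.31 ± 0.01), from 155 ± 5.08 CPM of RNA and 163 ± 6.38 CPM of footprints. Among 53 assembly factors of the large subunit 8 were high and 1 low (median 0.33). Las1l, an endonuclease of the internal spacer, was at 2.25 ± 0.03, Brix1 at 2.02 ± 0.09 and Rsl24d1 at -2.06 ± 0.12.

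Stress mRNAs held in check by upstream open reading frames, short frames that capture scanning ribosomes before the main frame, had no high member. Of 16 tested 6 were low (37.5%, against 15.9% of all genes), and the median was -0.28. Atf4 (chromosome 15, 80255184 to 80257545), the main transcription factor of the integrated stress response, stood at -1.39, -1.44 and -1.51 (-1.45 ± 0.06, edgeR adjusted p = 8.23e-18). Its partners in the response were also low, with Ddit3 (CHOP) at -1.86 ± 0.17 and the eIF2 phosphatase subunit Ppp1r15a (GADD34) at -1.62 ± 0.24. Mdm2, the p53 ubiquitin ligase, was at -0.27 ± 0.01 and Trp53, its target, was high at 2.5, 2.55 and 2.59 (2.55 ± 0.05), although a pseudogene carries its name.

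Polyamine genes were low in 5 of 8 cases (62.5%, against 15.9% of all genes) and high in 1. Oaz1, the antizyme whose frame is completed only by a ribosomal frameshift (chromosome 10, 80826656 to 80829290), was at -6.71, -5.78 and -7.28 (-6.59 ± 0.76), from 908, 963 and 895 RNA counts and 3, 9 and 2 footprints. It reached the filter's level in all RNA but not all footprint libraries, so its low ratio is a description. Odc1, the rate-limiting decarboxylase, was at -1.84, -1.74 and -1.83 (-1.80 ± 0.06, edgeR adjusted p = 3.9e-19), and spermine synthase Sms at -3.61 ± 0.30. Spermidine synthase Srm was the high member at 1.47 ± 0.07. Oaz1 and Sms are among 3 members with a named pseudogene, and the other 5 had a median of -0.13 with 2 low and 1 high. Of 6 iron-responsive mRNAs 2 were low and 1 high. Ferritin light chain Ftl1 was at -5.85, -5.48 and -5.35 (-5.56 ± 0.26) and has a named pseudogene. Ferritin heavy chain Fth1 was at -0.60 ± 0.05 and not called. No pseudogene carries the name of Fth1, but copies under other names were not searched for. The hypoxia factor Epas1 was high at 1.38 ± 0.05, and the iron exporter Slc40a1 was low at -2.74 ± 1.68 from under 2 CPM of RNA. Slc40a1 had 0, 7 and 8 footprints in siGFP, siNC and Lipo. It reached the filter's level in all RNA but not all footprint libraries. Selenoproteins, which read a stop codon as selenocysteine, had 5 of 18 low and 1 high (median -0.15), with Selk at -3.24 ± 0.20, Sep15 at -1.60 ± 0.10 and Sepn1 at 1.23 ± 0.29.

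**Figure D3:**
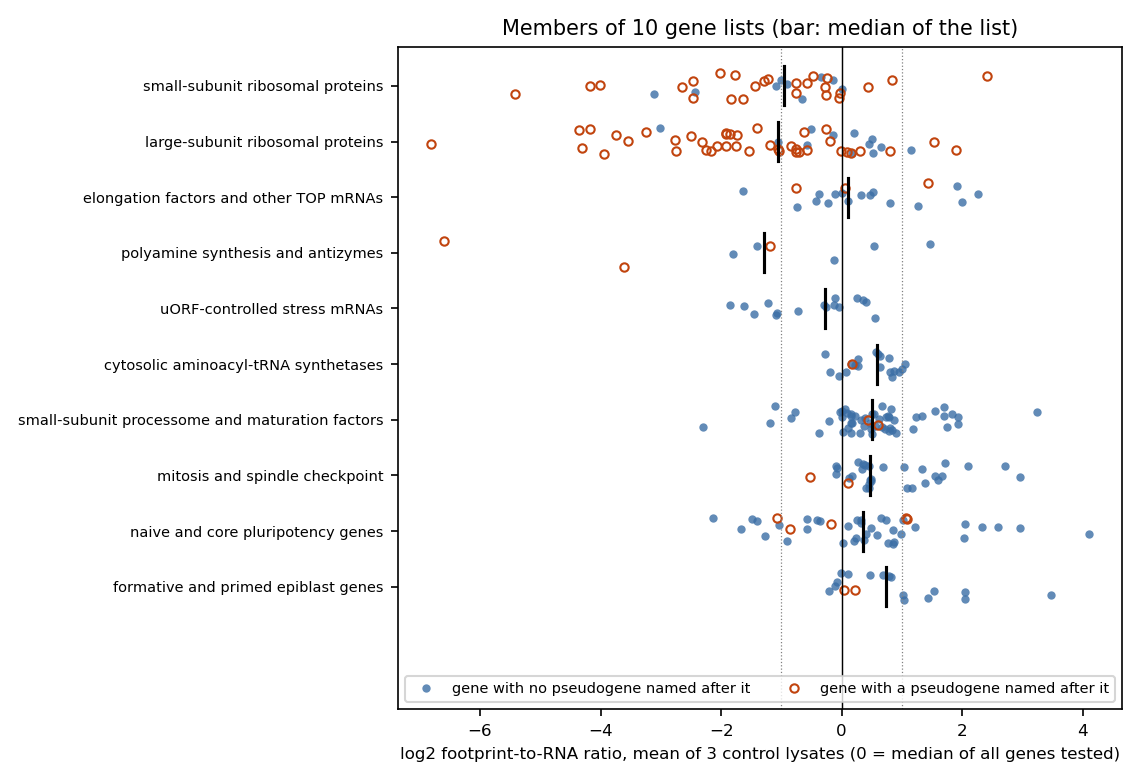
Each point is a gene of 1 of 10 lists (y axis) at its mean log2 footprint-to-RNA ratio over the 3 control lysates (x axis); open orange circles have a pseudogene named after them in RefSeq, filled blue circles do not, black bars are list medians and dotted lines mark -1 and 1. Ribosomal protein members extend left to -6.81, most of the far-left ones as open circles, while the tRNA synthetases stay between -0.28 and 1.05.

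Pluripotency genes ran from -2.14 to 4.11. Of 42 naive and core genes 9 were high and 7 low (median 0.35). Klf5 (chromosome 14, 99298691 to 99313412), a zinc-finger factor that sustains self-renewal, was at 4.02, 4.09 and 4.20 in siGFP, siNC and Lipo (4.11 ± 0.09, edgeR adjusted p = 2.35e-23), a footprint share 17.2-fold above that of the median gene with equal RNA. Its RNA was 51.0 ± 3.58 CPM and its footprints 748 ± 23.8 CPM. Utf1, a chromatin-associated stem cell factor, was at 2.85, 3.00 and 3.06 (2.97 ± 0.11). Myc, counted among the unstable mRNAs, was at 3.57, 3.59 and 3.44 (3.53 ± 0.09, edgeR adjusted p = 1.04e-22).

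The core trio did not share a level. Nanog was high at 1.08, 1.08 and 1.03 (1.07 ± 0.03), a call it lost when libraries were scaled by gene totals alone, and has a named pseudogene. Sox2 was at 0.05, -0.02 and 0.02 (0.02 ± 0.03; edgeR adjusted p = 0.862). Pou5f1 (Oct4; chromosome 17, 35506032 to 35510777) was at -0.91, -0.94 and -0.87 (-0.91 ± 0.04, edgeR adjusted p = 1.24e-14), below the median gene but within 2-fold of it; at the 2-fold limit it was called low when libraries were scaled by gene totals alone. The 3 genes do not overlap in any lysate, Nanog lying highest and Pou5f1 lowest in each. Klf4, at 1.02 ± 0.10, was not called on the fit's scale but was with RLE factors (the DESeq2 type of library scaling, in edgeR), with DESeq2 and without siGFP or without siNC. Esrrb (0.26 ± 0.04) and Zfp42 (Rex1, -0.18 ± 0.03) were near 0. Low members included Dppa2 (-2.14 ± 0.24), the RNA-binding protein Lin28a at -1.75, -1.64 and -1.64 (-1.68 ± 0.07) and Dppa5a at -1.34, -1.42 and -1.45 (-1.40 ± 0.06).

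Formative and primed epiblast genes had the highest list median, 0.74, with 7 of 18 high (38.9%, against 13.7% of all genes) and none low. The neural and germ cell factor Sox3 reached 3.47 ± 0.14 from 1.62 ± 0.07 CPM of RNA, and N-cadherin, Cdh2, 2.05 ± 0.16 from 2.49 ± 0.44 CPM. Immediate early and unstable mRNAs had 10 of 32 high and 3 low (median 0.32). Besides Myc, the early growth response factor Egr1 was high at 2.67 ± 0.25, while Atf3 (-1.62 ± 0.31) and Mycl1 (-1.48 ± 0.35) were low. The cell cycle genes Ccnd1 (cyclin D1, -0.32 ± 0.08) and Cdkn1a (p21, 0.73 ± 0.12) were not called. Ligands of the Wnt, Fgf, Bmp and Nodal families had a median of -0.24 over 35 tested genes of 70 and their receptors -0.42 over 28. Among ligands 2 were high and 6 low, including Fgf4, the autocrine signal of these cells, at -1.54, -1.46 and -1.48 (-1.49 ± 0.04). Of the 35 ligands 8 reached the filter's level in all RNA but not all footprint libraries, and 3 of these are low. Another 2 reached it in all footprint but not all RNA libraries, and 1 of these is high. Fgf2 (3.55 ± 0.77) and Bmp8b (1.05 ± 0.26) were high and Fgf1 (-1.69 ± 0.65) low, each from under 2 CPM of RNA. Fgf2, with 3, 3 and 1 RNA counts against 40, 20 and 33 footprints, passed the filter only through the footprint libraries, and its ratio depends on the prior count of 2. Bmp8b lost its call with gene totals alone and without siGFP or without Lipo. Fgf1 passed only through the RNA libraries. Among receptors 3 were high and 5 low, from Acvr1 (1.16 ± 0.12) and Fgfr4 (1.12 ± 0.13) to Tgfbr2 (-1.52 ± 0.22) and Fzd1 (-2.13 ± 1.09). Fzd1, with 2, 17 and 3 footprints, passed the filter through RNA alone.

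**Figure D4:**
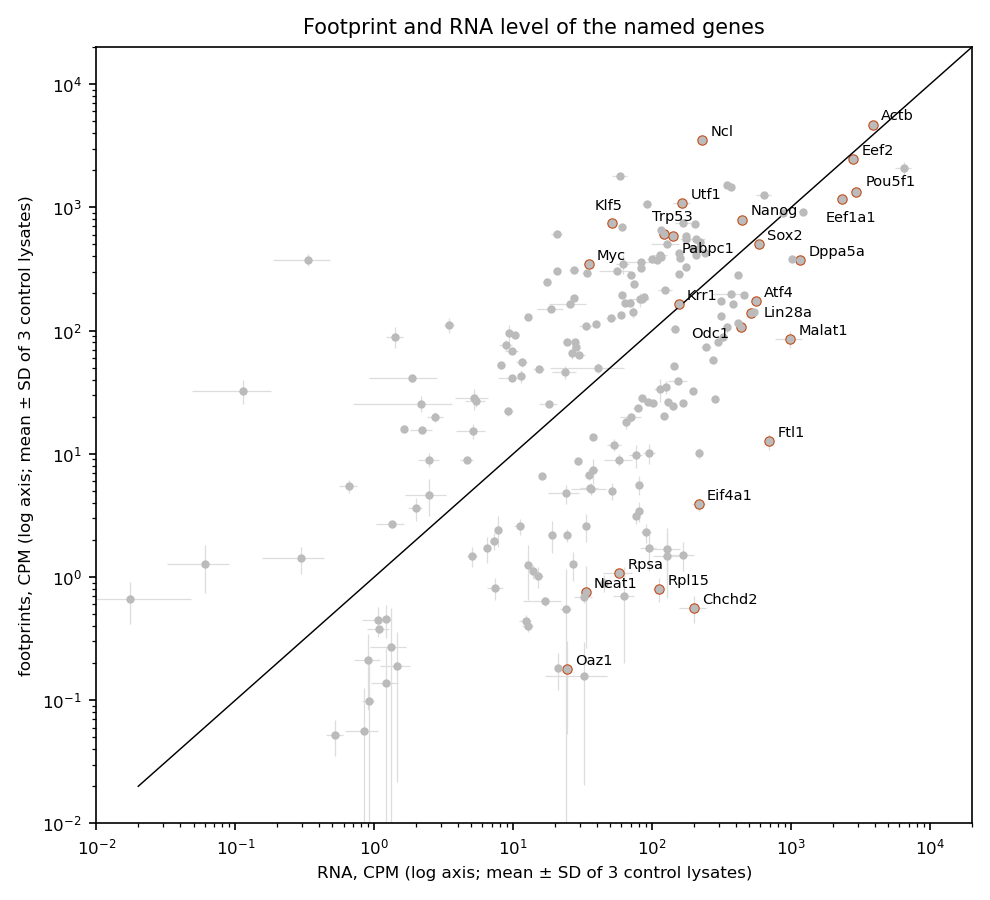
Footprint level (y axis) against RNA level (x axis) of the named genes in CPM on log axes, each point the mean and each bar the SD of the 3 control lysates, with a black line of equal CPM. Klf5, Myc and Ncl lie above the line, Sox2 and Eef2 on or near it, and Chchd2, Rpl15, Oaz1 and Eif4a1 far below it.

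Genes of mitosis were often high, 12 of 31 (38.7%, against 13.7% of all genes) with none low, with a median of 0.47. The kinetochore proteins Cenpe (2.78, 3.47 and 2.62; 2.96 ± 0.46) and Cenpf (2.71 ± 0.40) led. Replication genes had 6 of 45 high (13.3%, near the share of all genes) and 1 low (median 0.22). Pola1, the catalytic subunit of polymerase alpha, was at 1.31 ± 0.07 and DNA ligase Lig1 at 1.21 ± 0.02. The clamp loader subunit Rfc5 was low at -0.99 ± 0.06, a call lost with RLE factors, with DESeq2 and without siNC. Nuclear pore proteins had 8 of 27 high (29.6%) and 2 low, led by Pom121 (2.48 ± 0.14) and Tpr (2.36 ± 0.33). Nup35 was low at -2.89 ± 0.36, and so was the testis paralog Nup210l (-0.95 ± 0.65), a call lost with DESeq2 and without siGFP or without siNC.

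Chromatin regulators lay above the median with wide spread. In the Polycomb, BAF and NuRD complexes 12 of 53 were high and 6 low. Gatad2b of NuRD was at 3.38 ± 0.08 and the BAF subunit Arid1a at 2.12, 2.18 and 2.26 (2.18 ± 0.07), while the Polycomb chromobox proteins Cbx7 (-2.0 ± 0.12) and Cbx6 (-1.60 ± 0.13) were low. Histone methyltransferases and demethylases had 6 of 33 high and 1 low (median 0.30), with Setd1b at 3.03 ± 0.17 and Kdm6b at 2.30 ± 0.23. The low one, the H3K9 methyltransferase Ehmt2 (-0.99 ± 0.08), lost its call with RLE factors, with DESeq2 and without siGFP or without siNC. Numbered zinc finger proteins had 58 of 326 high and 41 low (median 0.22), from Zfp703 (3.32 ± 0.92) and Zfp385a (3.02 ± 0.28), from 0.0176 and 2.21 CPM of RNA, to Zfp740 (-3.09 ± 0.11) and Zfp91 (-4.15 ± 0.41). Zfp703 had 2, 0 and 0 RNA counts against 10, 17 and 23 footprints in siGFP, siNC and Lipo, so it passed the filter through footprints alone and its ratio is set by the prior count.

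Replication-dependent histones, whose mRNAs end in a stem-loop instead of a poly(A) tail, centred at 0.09. Of 59 tested 8 were high (13.6%, near the share of all genes) and 4 low. Hist1h3i was at 2.26 ± 0.26 and Hist1h4b at -1.71 ± 0.10. The list's highest entry, Hist3h2bb-ps (2.54 ± 0.20), is itself annotated as a pseudogene, and Hist2h3c2 (-2.19 ± 0.29) was under 1 CPM. Hist2h3c2, with 1, 2 and 1 footprints in siGFP, siNC and Lipo, passed the filter through RNA alone. Variant histones had 2 of 11 high and 3 low, with the linker histone H1fx at 3.32 ± 0.28, H2afx at 1.21 ± 0.19, H3f3a at -2.76 ± 0.47 and H2afz at -5.04 ± 0.37.

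SR proteins and hnRNPs, which bind pre-mRNA and steer splicing, had 9 of 33 high (27.3%, against 13.7% of all genes) and 3 low (median 0.42): Hnrnpd was at 3.80, 3.74 and 3.69 (3.74 ± 0.05) and Hnrnpa2b1 at 2.23 ± 0.05, whereas Hnrnpf (-1.54 ± 0.39) and Srsf3 (-1.47 ± 0.12) were low. Core spliceosomal proteins had 12 of 45 high and 7 low (median 0.28), from Sf3a2 (3.54 ± 0.09) and Snrpd3 (2.72 ± 0.04) to Lsm5 (-2.45 ± 0.17) and Lsm7 (-2.87 ± 0.11). Mediator subunits had 5 of 30 high and 2 low (median 0.19), with Med7 at 1.96 ± 0.07, Med12 at 1.61 ± 0.10, Med29 at -1.06 ± 0.14 and Med22 at -1.26 ± 0.12. RNA polymerase subunits had 1 of 27 high and 3 low (median -0.22). The largest subunit of polymerase II, Polr2a, was at 2.73 ± 0.15 and its small subunits Polr2c and Polr2l at -1.34 ± 0.06 and -3.34 ± 0.20.

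Respiratory chain genes stayed near the median as groups and held a few extreme members. Complex I had 1 of 36 high and 1 low (median 0.08; Ndufb11 1.18 ± 0.13, Ndufa12 -1.94 ± 0.13), and complexes II and III 3 of 13 high and 2 low (median 0.19). Ndufa12, the low member of complex I, has a named pseudogene. The complex III subunit Uqcrq was at 4.06, 4.22 and 3.99 (4.09 ± 0.12) and cytochrome c1, Cyc1, at 1.52 ± 0.05, while its partners Uqcr11 (-2.37 ± 0.02) and Uqcrh (-1.02 ± 0.10) were low. Cytochrome c oxidase had 2 of 11 low and none high (median 0.19; Cox7a2l -3.61 ± 0.23, Cox7c -2.53 ± 0.47). ATP synthase had 3 of 18 high and 3 low (median -0.22), from Atp5j (1.99 ± 0.02) and Atp5d (1.68 ± 0.06) to Atp5g1 (-1.51 ± 0.06) and Atp5l (-4.35 ± 0.51). Its 14 members with no named pseudogene had 3 high and 1 low. Components of mitochondrial import had 8 of 29 low and 2 high (median -0.54): the small chaperone Timm8a1 was at -6.26 ± 0.36 and the channel protein Timm23 at -4.41 ± 0.30, beside Tomm34 at 1.37 ± 0.01 and Tomm6 at 1.11 ± 0.08. Timm8a1, with 3, 7 and 4 footprints in siGFP, siNC and Lipo, passed the filter through RNA alone.

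TCA cycle enzymes had 3 of 19 high (15.8%, against 13.7% of all genes) and none low. They were led by malate dehydrogenase Mdh2 at 2.11, 2.08 and 2.09 (2.09 ± 0.02) and Dld (1.35 ± 0.06). Glycolysis had 1 of 20 high (hexokinase Hk1, 1.34 ± 0.09) and 3 low (median 0.11). Phosphoglycerate kinase Pgk1 (-5.21 ± 0.34) and the mutase Pgam1 (-3.45 ± 0.38) have named pseudogenes, as has Gapdh, which was at -0.19, 1.24 and 0.92 from only 40.5 ± 22.0 CPM of uniquely aligned RNA. Cholesterol synthesis had 4 of 24 high and 4 low (median 0.23), with the last reductase of the pathway, Dhcr7, at 1.94 ± 0.09 and Nsdhl at 1.20 ± 0.12. Mevalonate kinase Mvk (-1.53 ± 0.06) and the sterol sensor Insig1 (-1.58 ± 0.09) were low.

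Chaperones were called at shares not far from the 13.7% high and 15.9% low of all genes. Cytosolic chaperones had 6 of 32 high (18.8%) and 4 low (12.5%), from the prefoldin Pfdn2 (3.35 ± 0.11) and Hsph1 (2.15 ± 0.09) to Hspe1 (-1.65 ± 0.09) and the heat-inducible Hspa1b (-1.69 ± 0.35). Hspe1 has a named pseudogene, and of the 25 members without one 5 were high and 2 low. Endoplasmic reticulum chaperones had 4 of 20 high and none low (median 0.23), with the disulfide isomerase Pdia3 at 3.85, 3.79 and 3.66 (3.77 ± 0.10) and Hsp90b1 (Grp94) at 2.38 ± 0.03. Proteasome subunits had 2 of 37 high and 1 low (median 0.03; Psmb2 1.46 ± 0.07, Psmc6 1.32 ± 0.07, Psma5 -1.74 ± 0.11). Psma5, the low member, has a named pseudogene. Deubiquitinases and F-box proteins had 11 of 107 high and 21 low (median -0.09), from Fbxo11 (1.92 ± 0.12) and Usp9x (1.67 ± 0.26) to Fbxl14 (-2.45 ± 0.03) and Usp31 (-2.50 ± 0.25).

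Among genes of the secretory pathway, matrix proteins had 9 of 45 high and 2 low, with perlecan, Hspg2, at 1.96, 2.17 and 2.14 (2.09 ± 0.11) from 114 ± 12.8 CPM of RNA. Col1a1 (2.29 ± 0.26), Col8a2 (-1.11 ± 0.47) and Col27a1 (-1.16 ± 0.18) were called from under 2 CPM, Col1a1 passing the filter through footprints alone. Lysosomal genes had 4 of 30 high (13.3%, near the share of all genes) and none low, with a median of 0.32 (Tpp1 1.77 ± 0.07, Cd63 1.48 ± 0.22). Translocon, signal peptidase and oligosaccharyltransferase genes had 4 of 31 high and 4 low (median -0.39), with the post-translational translocation factors Sec63 (2.12 ± 0.23) and Sec62 (1.74 ± 0.12) against the small proteins Sec61g (-2.06 ± 0.57) and Srp9 (-4.31 ± 0.26). The integrin list had 3 of 21 high and 2 low (median 0.19), with Itgb4 (1.81 ± 0.13), Itga5 (1.56 ± 0.10) and Itgb5 (-1.22 ± 0.05). Its lowest entry, Itgb1bp2 (-2.89 ± 1.13), is an integrin-binding protein. With 3, 1 and 0 footprints, it passed the filter through RNA alone. Solute carriers had 25 of 234 high and 34 low (median -0.06), from Slc25a35 (3.17 ± 0.35) to Slc27a5 (-2.67 ± 1.21) and Slc40a1, named above. Of the 234, 16 reached the filter's level in all RNA but not all footprint libraries, and 8 of these are low. Another 4 reached it in all footprint but not all RNA libraries, and 3 of these are high. Slc25a35 and Slc27a5 had 0.65 and 0.91 CPM of RNA. Slc27a5, with 0, 6 and 2 footprints in siGFP, siNC and Lipo, passed the filter through RNA alone. Actin, tubulin and myosin genes had 9 of 39 high and 9 low (median 0.04): Actn1 was at 1.90 ± 0.08, the myosin Myh10 at 1.61 ± 0.05 and Actb at 0.52 ± 0.08, while Tmsb10 (-3.13 ± 0.29) and Actg1 (-3.19 ± 0.69) were low.

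The most extreme protein-coding genes with at least 10 CPM over the 6 libraries were of unlike kinds. At the top stood Vsig8, an immunoglobulin-domain membrane protein (10.2 ± 0.54), the Fgf23 co-receptor Klotho, Kl (7.76 ± 0.80), the kinase Wnk2 (6.14 ± 0.14) and the sodium pump subunit Atp1b2 (4.74 ± 0.62). Vsig8 had 17, 15 and 6 RNA counts and 7928, 11967 and 8594 footprints in siGFP, siNC and Lipo. These 4 and Ndufa4l2 (3.92 ± 0.78) had means of at most 2.17 CPM in RNA, so their ratios rest on few RNA reads, Vsig8 and Kl passed the filter through footprints alone, and overlap with another transcript was not tested. Others had at least 17.6 CPM of RNA: nucleolin, Ncl (4.07, 4.23 and 4.23; 4.18 ± 0.09), Klf5, Uqcrq and the endosomal GTPase Rab7 (4.05 ± 0.09). At the bottom stood the mitochondrial protein Chchd2 (-8.08, -8.0 and -8.22; -8.10 ± 0.11), Rpl15, Oaz1, Timm8a1, Arxes2 (-5.58 ± 1.30), Ftl1, Eif4a1, the cullin ligase subunit Rnf7 (-5.54 ± 0.41), Rpsa and the cleavage factor Nudt21 (-5.35 ± 0.16). Chchd2, Rpl15, Oaz1, Ftl1 and Rpsa of these 10 have a named pseudogene, as has Rab7 of the 10 at the top. Oaz1, Timm8a1 and Arxes2 reached the filter's level in all RNA but not all footprint libraries, so they passed through the libraries in which they are high.

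Noncoding RNAs give a measure of fragments that need not come from translating ribosomes. Of 13 nuclear and imprinted long noncoding RNAs tested 12 were low and none high. Of the 13, 3 reached the filter's level in all RNA but not all footprint libraries, Neat1 among them, and all 3 are low. Neat1 (chromosome 19, 5824708 to 5845480), the scaffold of nuclear paraspeckles, was at -6.62, -4.57 and -4.95 (-5.38 ± 1.09), from 1248, 1357 and 1166 RNA counts and 5, 33 and 21 footprint counts. Malat1, of nuclear speckles, was at -3.87, -2.86 and -3.09 (-3.27 ± 0.53) and Mirg at -4.57 ± 0.21. Host genes of small nucleolar RNAs, which are spliced and exported although they code for no known protein, were less extreme: 6 of 12 were low and none high (median -1.08). Snhg8 was at -3.0 ± 0.20 and Snhg6 at -2.16 ± 0.12, while Gas5, a host with a pyrimidine-tract start, was at -0.07, -0.93 and -0.89 (-0.63 ± 0.48) and not called.

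Small nucleolar and Cajal body RNAs split widely, with 61 of 101 low and 16 high (median -2.39). Snora81 (-7.22 ± 1.40), Snora16a (-6.50 ± 0.62), Scarna10 (-6.43 ± 0.97), Snora44 (-6.29 ± 0.76) and Snora74a (-6.02 ± 0.28) were lowest. Of the 101, 22 reached the filter's level in all RNA but not all footprint libraries, Snora81 and Scarna10 among them. Of these 22, 21 are low. Snord69 (5.2 ± 0.27), the minor spliceosomal RNA Rnu11 (5.17 ± 0.27), Snora65 (3.56 ± 0.31), Snord64 (3.07 ± 0.25) and Snord2 (2.99 ± 0.05) were highest among noncoding genes with at least 10 CPM. Rnu11 held 1784 ± 87.8 CPM of footprint reads and 58.5 ± 7.61 CPM of RNA reads. Of 4 structured RNAs tested, the RNase P RNA Rpph1 (-2.24 ± 0.22) and the RNase MRP RNA Rmrp (-1.40 ± 0.38) were low. For noncoding genes the counted footprint reads are RNase-resistant fragments of footprint size, and their origin was not tested.

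MicroRNA genes that passed the filter held both high and low ratios. The deposited counts are per gene and do not separate the arms of the hairpin. Mature sequences (RefSeq, GRCm38.p6) are shown for 4 of the 12 microRNA genes with the most footprint counts, chosen after their values were seen, with bases 2 to 8, the seed that pairs with targets, in capitals. The first pair belongs to the same cluster on chromosome 14 and shares its seed.
mmu-miR-17-5p: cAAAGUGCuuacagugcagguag
mmu-miR-20a-5p: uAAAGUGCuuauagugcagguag
mmu-miR-182-5p: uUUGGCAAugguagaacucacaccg
mmu-miR-708-5p: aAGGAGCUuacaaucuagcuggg
Mir17 had 49, 47 and 61 RNA counts and 113, 112 and 97 footprint counts in siGFP, siNC and Lipo, a ratio of 1.82 ± 0.39. Mir20a had 22, 28 and 20 against 88, 137 and 118 (2.98 ± 0.16). Mir182 had 18, 12 and 15 against 105, 212 and 166 (4.0 ± 0.61), and Mir708 5, 7 and 7 against 82, 97 and 105 (4.27 ± 0.19). Mir182 and Mir708 passed the filter through the footprint libraries, in which they are high, so their ratios are a description. Mir290, of the cluster that dominates these cells, was at -0.05 ± 0.29, with 313, 302 and 396 RNA counts against 130, 223 and 208.

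Level and start sequence varied with the ratio by small amounts. Across 13155 protein-coding genes the Spearman correlation of the ratio with mean level over the 6 libraries was 0.0854. These are points that share libraries, not independent replicates. The level includes the footprint counts that also enter the ratio, so part of any link between them is built in. A level from RNA alone was not analysed. The most abundant sixth (from 109 CPM) had a median of 0.22 with 8.21% low, and the least abundant sixth -0.06 with 16.3% low. For the 8389 genes with a single RefSeq start (63.8% of those tested, so a gene-wide reading of GC is void), the GC share of the 50 bases after the start correlated at -0.103. Within these genes the most GC-rich genes (GC of 74% to 94%) had a median of -0.16 with 20.6% low, and the least GC-rich (12% to 58%) 0.12 with 11.7% low. The letters ATG in those 50 bases, on the gene's strand and in any frame, were present in 2587 genes with a median of -0.03 and absent from 5802 with a median of 0.06; 45.8% of all 22862 promoters hold them.

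The baseline was set beside the Krr1 knockdown lysates, 3 of them, called A, C and D after their columns. A change of the ratio was called in 6 of 14236 genes (0.0421%) by the interaction of assay and condition with the lysate as a block (edgeR quasi-likelihood, adjusted p under 0.05; 975 genes at an unadjusted p under 0.05). Without the block, no gene was called, with 337 at the unadjusted p, and DESeq2 called 20. List medians moved by 0.04 in the median list. The largest shift was in small nucleolar and Cajal body RNAs, from -2.31, -2.03 and -2.40 in the controls to -1.85, -1.58 and -1.34 in the knockdowns. The epiblast list moved from 0.76, 0.70 and 0.74 to 0.89, 0.82 and 0.88, with no member called. In ribosomal protein genes of the small subunit the lysates overlapped, from -1.02 to -0.93 in controls and from -0.97 to -0.68 in knockdowns.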

How the data were processed

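RNA-seq and ribosome profiling counts were deposited as one table each. The authors aligned with STAR to mm10 and counted with HTSeq, per the submitters' processing notes (versions, strand setting: not given in the sources used here). The deposited counts are whole reads per gene symbol, and per the tables' closing rows only unique alignments were counted. Closing rows that name no gene were left out; of the control alignments, 31.2% to 33.4% (RNA) and 57.5% to 58.9% (footprints) lay in no gene.

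The 6 control libraries were fitted with edgeR 4.0.16 (limma 3.58.1, R 4.3.3): TMM factors, filterByExpr (minimum count 10), quasi-likelihood test of footprint against RNA with the lysate as a block, Benjamini-Hochberg adjustment over 13911 genes. The block was used because lysates were split between assays. Same-lysate deviations correlated at 0.246, 0.32 and 0.337 in Lipo, siNC and siGFP (7016 genes with at least 20 CPM). For different lysates the values were -0.281 to -0.00166. Deviations were taken from the mean of each assay, so positive same-lysate values force negative ones between lysates, and that contrast adds no support. Printed ratios are log2 of TMM-scaled CPM with a prior count of 2, computed here and centred on the median gene of each lysate. The knockdown comparison used the interaction term over 12 libraries. The scripts were checked on simulated counts. Between libraries of a kind, counts differed beyond sampling noise.

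The members and the 52 gene lists were chosen with earlier results of these data known. Named genes were, per list, up to 2 called members at each end (or the 2 with most RNA); the 10 highest and lowest called protein-coding genes and up to 5 noncoding genes at each end with at least 10 CPM and the same sign in every lysate; and a set of stem cell, p53, stress and reference genes. Some genes that this rule chose are not reported here. Symbols were matched to RefSeq (23260 of 23420, 99.3%). The alternatives tried were no replicate block, other scaling, DESeq2 1.42.0, other filters, prior counts and fold limits, all 12 libraries, each lysate left out and, added after seeing the data, genes with a named pseudogene left out. Pandas 2.3.3, numpy 2.4.6 and matplotlib 3.10.9 were used.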

Additional observations from a re-analysis of the deposited data

Results flagged for a closer look

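The ratio of 6 genes differed between control and Krr1 knockdown lysates by the interaction test (edgeR quasi-likelihood with the lysate as a block, Benjamini-Hochberg adjusted p); without the block none was called. Zbtb7c, a zinc finger protein, was at 3.31, 4.0 and 3.81 in siGFP, siNC and Lipo and at 4.98, 5.29 and 5.53 in knockdowns A, C and D, a difference of 1.61 (edgeR adjusted p = 0.000836). Its RNA counts were 323, 269 and 275 in the controls and 69, 109 and 81 in the knockdowns, so RNA was low in all 3 knockdowns. The difference was 0.39 for the dynein heavy chain Dync1h1 (edgeR adjusted p = 0.0353), from -0.14, -0.11 and -0.15 to 0.27, 0.20 and 0.30. Polr2a, the largest subunit of RNA polymerase II, differed by 0.49 (edgeR adjusted p = 0.0422), from 2.84, 2.78 and 2.56 to 3.08, 3.20 and 3.36. The Golgi GTPase Rab6a differed by -0.72 (-0.715 unrounded), from between -0.58 and -0.29 to between -1.36 and -0.81. Mir1949 differed by 1.48, with 29, 31 and 32 footprint counts in the controls and 48, 49 and 62 in the knockdowns, and RNA counts of 729, 1092 and 836 in the controls and 386, 639 and 527 in the knockdowns. Snora7a differed by 0.85, with all 3 knockdown lysates above all 3 controls.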

How the results depend on the processing

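Without the replicate block 1895 genes were high and 2202 low, close to the paired fit. Scaled by gene totals alone, 1397 were high and 2890 low, the median gene moved by -0.21, and high genes fell from 46.3% to 32.6% of those called. With a mean of at least 5 CPM 1470 were low, at the adjusted p alone 5274 were high and 5442 low, and at 1.5-fold 3318 and 3620. No gene was called in the opposite direction under any setting, and 189 of 206 named genes kept their call at the 2-fold limit in each block, scaling, filter, tool and left-out-lysate setting in which they were tested.

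At a mean of at least 5 CPM the list medians were -0.786 (small-subunit ribosomal proteins), -1.15 (large-subunit), 0.47 (processome), 0.75 (matrix), 0.77 (epiblast), -1.43 (polyamine), -0.93 (snoRNA hosts), -1.56 (snoRNAs) and -3.404 (nuclear long noncoding RNAs). Without genes with a named pseudogene they were -0.91 (small-subunit), 0.19 (large-subunit, the sign reversed), 0.80 (epiblast) and -0.13 (polyamine). The processome median was 0.4975 by gene totals alone, 0.4764 with no filter and 0.4995 with a prior count of 5. Leaving out each lysate gave -1.012 to -0.9143 for small-subunit proteins, -1.029 to -0.9422 for large-subunit proteins, 0.4971 to 0.5157 for the processome, 0.4467 to 0.5261 for Polycomb, BAF and NuRD, and -1.153 to -0.9612 for snoRNA hosts. Over all lists and settings 467 medians moved by less than the spread between lysates and 89 by more; 3 changed sign, the large-subunit list and, close to 0, complex I (-0.0071 with no filter) and the proteasome (-0.024 without siGFP). The cause of these shifts was not tested. Between control and knockdown, 0 genes were called without the replicate block (edgeR; 337 at an unadjusted p under 0.05) and 20 by DESeq2. The planned split by coding length was not run. Below 1 CPM, the median SD between lysates of 0.55 limits what single ratios show.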
